A study of Mus musculus with 8 samples.

Results

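Semaphorins, plexins and neuropilins are a family of guidance ligands and their receptors, and their transcripts were followed here in mouse induced cardiomyocytes. The 31 genes were taken by name from the count table: every symbol of the form Sema3 to Sema7 with a letter a to g, every plexin of groups A to D and both neuropilins. They are 20 semaphorins, 9 plexins and 2 neuropilins among 53921 rows that name a gene. The rule uses names and no measured value. Of the 31, 29 passed the filter on low counts and were tested, and Plxnb3 and Sema5b did not. Every library came from cells labelled Induced cardiomyocytes(Neo), a name whose suffix the labels do not explain, that received the mix labelled MGT and were collected on day 5. MGT stands in this field for Mef2c, Gata4 and Tbx5, factors that drive fibroblasts towards a heart muscle identity. The cells carried a lentiviral short hairpin RNA against Grhl3 (treatment MGT+shGrhl3, 2 RNA-seq libraries) or the hairpin named shNT, taken as the control (treatment MGT+shNT, 2 libraries). The H3K27ac CUT&Tag samples of the series were not analysed here. Whether both libraries of a hairpin are separate cultures is not stated in the labels. The p-values therefore speak only to the variation among these 4 libraries, part of which may be technical.

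Total counts were 19823397 and 18609743 in the shGrhl3 libraries, and 19257692 and 16104243 in the shNT libraries. Grhl3 itself had 11 and 19 counts in shGrhl3 cells and 31 and 14 counts in shNT cells, so the groups overlapped. Its log2 fold change was -0.72 (SE 0.53, adjusted p = 0.311 in edgeR's quasi-likelihood test), and a fall in the targeted mRNA was not detected at this depth. The table names the columns read as the shGrhl3 libraries shGrhl1 and shGrhl2; they were read as replicates 1 and 2 because the labels name no other target. Cardiomyocyte transcripts were present in every library, with a summed level over 10 fixed markers of 9414 and 9277 CPM in shGrhl3 cells and 8242 and 8163 CPM in shNT cells. Of these 10 markers 5 were higher, among them Myh6 at 12.2-fold and Tnni3 at 6.00-fold, 1 was lower (Myl4) and 4 did not pass. CPM are counts scaled by the TMM-adjusted library size. Fibroblast transcripts were also abundant, with 11238 and 11909 CPM in shGrhl3 cells and 10162 and 10292 CPM in shNT cells over 10 markers. Much of that sum was Col1a1, at 5667 and 6500 CPM in shGrhl3 cells and 4242 and 4159 CPM in shNT cells; of the 10 markers 2 were higher (Col1a1 and Lum), 6 lower, among them Pdgfra with a log2 fold change of -1.14, and 2 did not pass. The part of these differences in the results on the members was not tested. In such bulk samples, fewer cells of a type and less RNA per cell cannot be told apart.

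Semaphorins are secreted or membrane-bound proteins that steer migrating cells, axons and vessels. Most secreted class 3 semaphorins bind a neuropilin, which has little signalling domain of its own, and the neuropilin passes the signal through a plexin. Membrane-bound semaphorins usually bind plexins directly. Inside the cell, plexins act on small GTPases, on integrin adhesion and on the actin and microtubule cytoskeleton. In the heart, this system is known for patterning the outflow tract, the venous connections and the sympathetic nerves.

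In shGrhl3 cells, 4 of the 7 class 3 semaphorins rose (Sema3b, Sema3c, Sema3e and Sema3f), while both neuropilins and the lone C-type plexin, Plxnc1, fell. Plxna1 and the class 4 ligand Sema4d rose, and the membrane-bound ligands Sema4c, Sema4g and Sema6a fell. In all, 6 of 29 tested members were higher and 6 were lower at an adjusted p of 0.05, and 17 did not pass. Across all 15324 genes tested, 35.3% passed (17.2% higher and 18.1% lower), against 41.4% of the tested members (20.7% in each direction). The share of members called was thus near that of all genes, and the count alone sets nothing apart about the family. The median log2 fold change was 0.03 over the members and -0.01 over all genes. With at least a 2-fold difference, 3 of the 29 tested members passed, Plxnc1, Sema4g and Sema6a, all lower. Over all genes, 7.62% did so in either direction. Without shGrhl3 replicate 2 the number of higher members was 4, since Sema3e and Sema4d were no longer called; the 6 lower calls were made in all 14 alternative settings. With scaling by total counts alone, 9 members were higher and 6 lower.

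**Figure D1:**
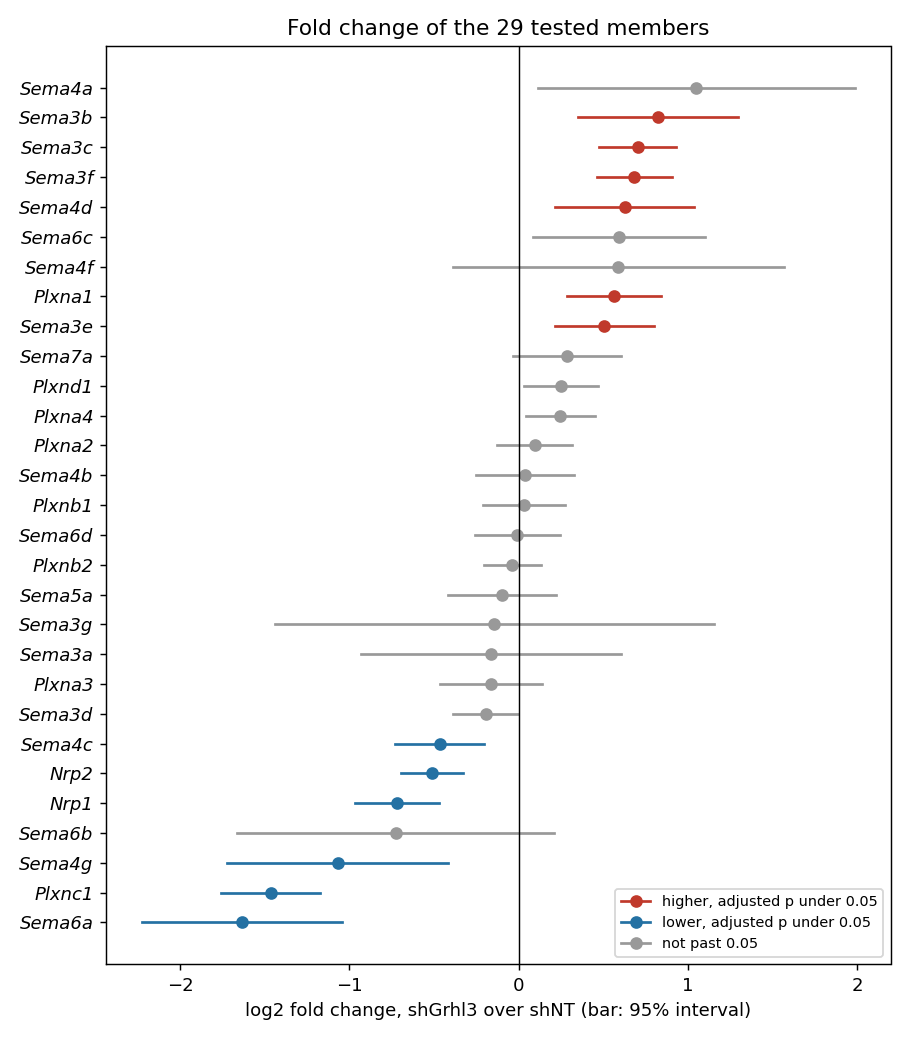
Log2 fold change of shGrhl3 over shNT (x axis) for each of the 29 tested members (y axis), with 95% intervals from the quasi-likelihood fit of 2 libraries per group. Points run from -1.64 for Sema6a to 1.05 for Sema4a, with 6 members called lower (blue), 6 called higher (red) and 17 not past the threshold (grey).

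The shGrhl3 libraries also differed from each other over this family. Of the 29 tested members, 24 had a higher CPM in shGrhl3 replicate 2 than in shGrhl3 replicate 1, with a median ratio of 1.17. Over all genes tested, 50.1% were higher in replicate 2 and the median ratio was 1.00. In the shNT pair, 10 of 29 members were higher in replicate 2. The part of this difference in the results was not tested, and values without shGrhl3 replicate 2 are given where they change a call.

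Among the class 3 ligands, Sema3c had the lowest p of the rising members. Sema3c, required in mouse for septation of the cardiac outflow tract, lies on chromosome 5 from 17574816 to 17730268 (GRCm38.p6, the assembly behind mm10). It stood at 67.8 and 81.4 CPM in shGrhl3 cells, against 42.4 and 49.2 CPM in shNT cells. Both shGrhl3 libraries lay above both shNT libraries. The log2 fold change was 0.71 (SE 0.11, adjusted p = 2.22e-05, edgeR's quasi-likelihood test as in all values that follow), a 1.63-fold higher level. Sema3f, a repellent that signals mainly through Nrp2, lies on chromosome 9 from 107681499 to 107710475. Its levels were 54.1 and 63.1 CPM in shGrhl3 cells and 36.6 and 36.3 CPM in shNT cells, again without overlap (log2 fold change 0.68, SE 0.11, adjusted p = 2.48e-05). With each library left out in turn, the log2 fold change ranged from 0.59 to 0.83 for Sema3c and from 0.59 to 0.79 for Sema3f.

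Sema3b and Sema3e rose with less certainty. Sema3b, a neuropilin ligand first studied as a tumour suppressor, had 161 and 127 counts in shGrhl3 cells and 86 and 61 counts in shNT cells. These counts correspond to 8.03 and 6.80 CPM against 4.49 and 3.84 CPM, and the groups did not overlap (log2 fold change 0.82, SE 0.23, adjusted p = 0.00673). Its adjusted p was 0.0550 without shGrhl3 replicate 1 and 0.0506 without shNT replicate 2. The annotated span of Sema3b overlaps that of Lsmem2, which also rose (log2 fold change 1.61, adjusted p = 0.000395), and the labels do not state how reads in the overlap were counted. Sema3e is the exception of its class, since it can bind Plxnd1 without a neuropilin. It stood at 21.1 and 27.2 CPM in shGrhl3 cells and 17.1 and 16.8 CPM in shNT cells (log2 fold change 0.51, SE 0.14, adjusted p = 0.00709). The higher value came from shGrhl3 replicate 2; without that library the log2 fold change was 0.34 and the adjusted p 0.119.

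The other class 3 members did not pass. Sema3d, which patterns the pulmonary venous connection in mouse, had most of the class 3 counts in every library. It stood at 240 and 292 CPM in shGrhl3 cells and 317 and 291 CPM in shNT cells, with overlapping groups (log2 fold change -0.19, 95% interval -0.39 to -0.002, adjusted p = 0.110). Without shGrhl3 replicate 2 it was called lower, at a log2 fold change of -0.32 and an adjusted p of 0.00200, and without shGrhl3 replicate 1 the log2 fold change was -0.06 (adjusted p = 0.671). Sema3a, which guides cardiac sympathetic innervation, had 31 and 41 counts in shGrhl3 cells and 44 and 29 counts in shNT cells. Sema3g had 15 and 9 counts in shGrhl3 cells and 16 and 8 counts in shNT cells. For both genes the groups overlapped and the intervals were wide, from -0.93 to 0.61 on the log2 scale for Sema3a and from -1.44 to 1.16 for Sema3g.

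The summed class 3 level did not separate the groups, at 393 and 473 CPM in shGrhl3 cells and 421 and 399 CPM in shNT cells, while its make-up did. Sema3d held 61.0% (95% Wilson interval 59.9 to 62.1) and 61.7% (60.7 to 62.7) of class 3 counts in the shGrhl3 libraries. In the shNT libraries its share was 75.4% (74.4 to 76.3) and 72.8% (71.7 to 73.9). Sema3c held 17.2% (16.4 to 18.1) and 17.2% (16.42 to 17.995) in the shGrhl3 libraries, against 10.1% (9.43 to 10.8) and 12.3% (11.5 to 13.2) in the shNT libraries. These shares do not depend on the scaling between libraries, but they are shares of counts, to which longer transcripts add more, and their intervals cover counting error only. Both shares were chosen after the values were seen and are given without a test.

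**Figure D2:**
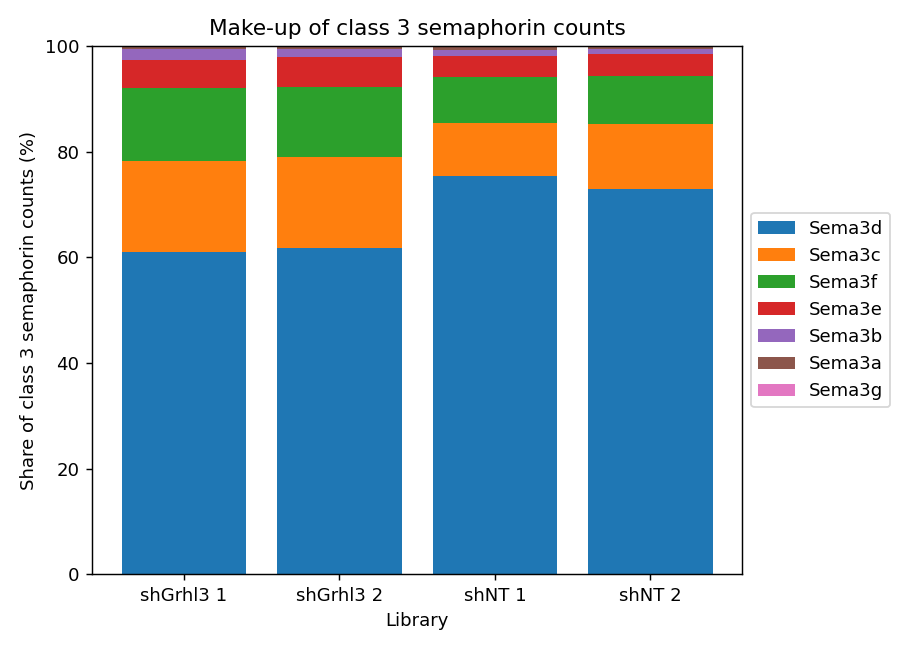
Share of class 3 semaphorin counts (y axis, %) held by each of the 7 genes in each library (x axis). Sema3d, at the bottom, takes 61.0% and 61.7% in the shGrhl3 libraries and 75.4% and 72.8% in the shNT libraries.

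Both neuropilins fell. Nrp1, a co-receptor for class 3 semaphorins and for VEGF-A, lies on chromosome 8 from 128358591 to 128505476. It had 545 and 605 counts in shGrhl3 cells and 1021 and 705 counts in shNT cells. Its CPM were 27.2 and 32.4 in shGrhl3 cells, below the 53.4 and 44.4 in shNT cells. That is a log2 fold change of -0.72 (SE 0.12, adjusted p = 4.96e-05). Nrp2, the main partner of Sema3f and of VEGF-C, lies on chromosome 1 from 62703317 to 62818692. It stood at 84.4 and 82.7 CPM in shGrhl3 cells and 117 and 121 CPM in shNT cells, without overlap (log2 fold change -0.51, SE 0.09, adjusted p = 8.28e-05). Nrp1 and Nrp2 together summed to 112 and 115 CPM in shGrhl3 cells and 171 and 165 CPM in shNT cells. The share of Nrp1 in those counts was 24.4% and 28.1% in shGrhl3 libraries and 31.3% and 26.8% in shNT libraries, which overlapped.

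**Figure D3:**
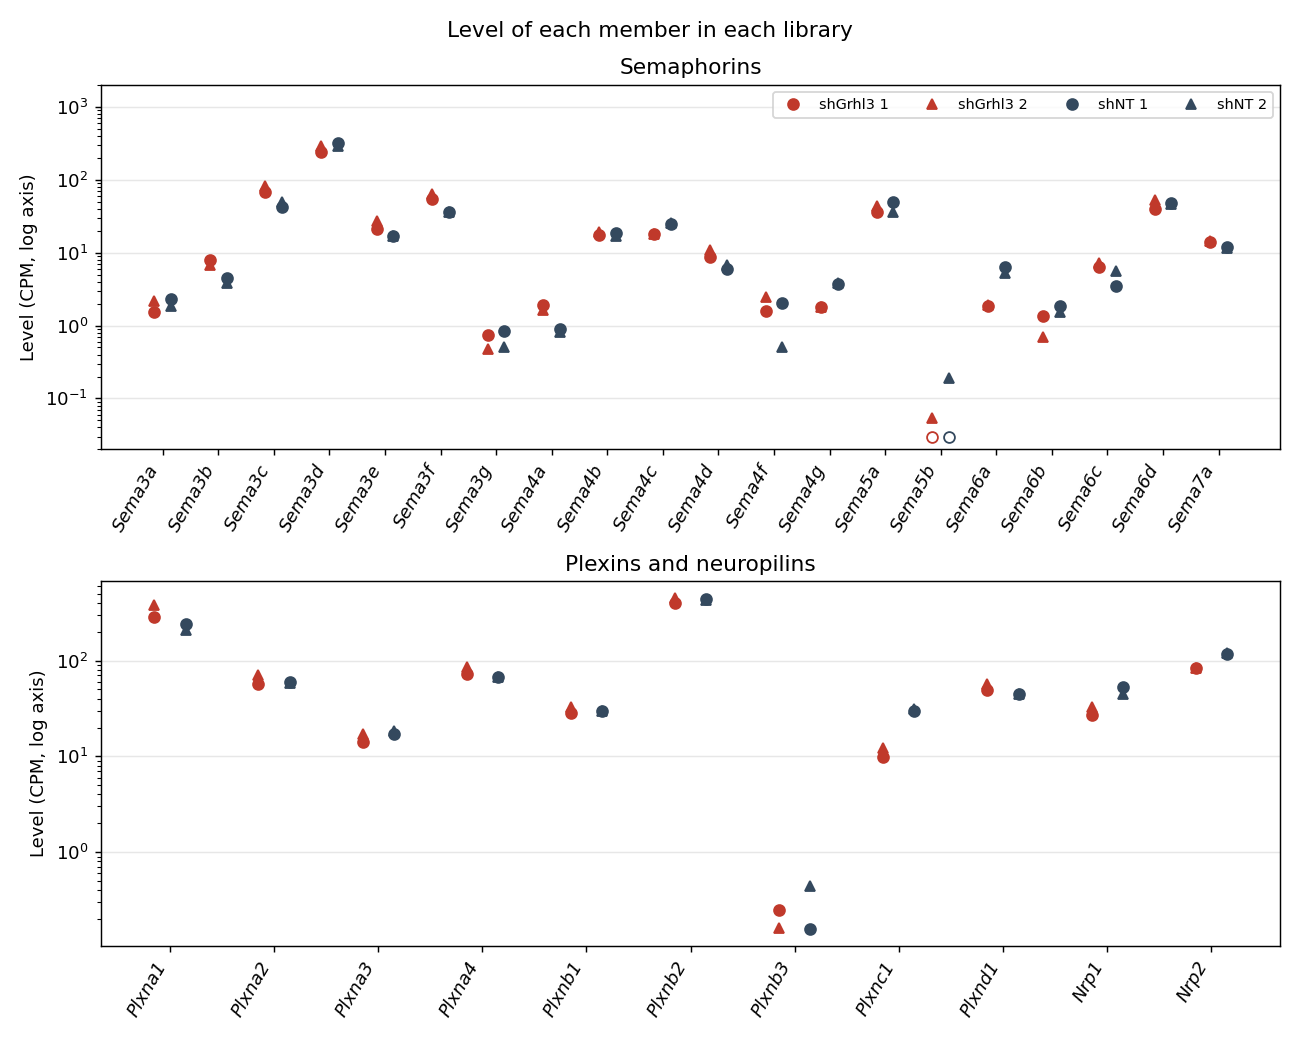
Level of each of the 31 genes (x axis) in each library, in CPM on a log axis (y axis), with shGrhl3 in red left of shNT in dark blue, circles for replicate 1 and triangles for replicate 2. Open circles mark a count of 0, drawn at the foot of the panel; the groups are apart for both neuropilins and for Plxnc1, and overlap for Plxnb2 and Sema3d.

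Promoter sequence is shown for the called members with the lowest p in each direction that have a single RefSeq window lying wholly outside the annotated gene. These are the rising ligands Sema3c and Sema3e and the falling co-receptor Nrp2, so that genes that moved in opposite directions can be read side by side. Each run is the 250 bases before the annotated start, 5′ to 3′ on the gene's strand (RefSeq, GRCm38.p6, all on the plus strand), with CG dinucleotides in capitals. The windows are chr5:17574566-17574815 for Sema3c, chr5:14025026-14025275 for Sema3e and chr1:62703067-62703316 for Nrp2.
Sema3c: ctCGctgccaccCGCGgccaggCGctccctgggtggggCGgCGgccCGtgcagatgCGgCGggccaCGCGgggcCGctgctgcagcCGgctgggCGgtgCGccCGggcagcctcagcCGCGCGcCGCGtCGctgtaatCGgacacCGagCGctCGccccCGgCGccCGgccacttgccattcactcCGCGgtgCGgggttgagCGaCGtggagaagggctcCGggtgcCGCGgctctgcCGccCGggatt
Sema3e: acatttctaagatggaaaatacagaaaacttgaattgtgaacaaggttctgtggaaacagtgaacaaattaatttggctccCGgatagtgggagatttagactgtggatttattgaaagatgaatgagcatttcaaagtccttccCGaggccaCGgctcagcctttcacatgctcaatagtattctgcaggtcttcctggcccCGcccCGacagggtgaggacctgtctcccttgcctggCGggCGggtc
Nrp2: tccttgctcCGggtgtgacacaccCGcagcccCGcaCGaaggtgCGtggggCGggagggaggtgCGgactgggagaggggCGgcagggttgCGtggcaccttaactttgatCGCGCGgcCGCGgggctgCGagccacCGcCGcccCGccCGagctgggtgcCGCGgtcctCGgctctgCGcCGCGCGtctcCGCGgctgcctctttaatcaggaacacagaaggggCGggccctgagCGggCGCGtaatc
The Sema3c and Nrp2 windows are rich in CG, with 39 and 32 CG dinucleotides and a G+C content of 78.4% and 72.4%, although one gene rose and the other fell. The Sema3e window has 7 CG dinucleotides and 48.0% G+C. The medians over 32851 RefSeq windows of the same length are 6 and 52.4%. The letters of 4 motifs were searched on both strands, with any overlap allowed, in the windows of the 26 members that have one: AACNGGTT for Grainyhead factors, CTA followed by 4 bases of any kind and TAG for MEF2, AGATAA for GATA and AGGTGT for T-box factors. None of the 3 printed windows holds any of them. The Grainyhead letters occur in windows of 2 members, Sema6c and Sema6d, neither of them called, and in 1.79% of all windows. The MEF2 letters occur in a window of 1 member, Sema4d, which was called higher, and in 3.20% of all windows. The T-box letters occur for 5 members, none called, and in 11.8% of all windows. The GATA letters occur for 0 members and in 9.99% of all windows. Only 8 of the 12 called members have a window, and members are counted per gene while the shares of all windows are counted per window. A match of letters is a description of the window and not a binding site.

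Of the plexins, 1 rose, 1 fell and 6 of the 8 tested did not pass, which is 25% called beside 35.3% of all genes. Plxna1, an A-type plexin that pairs with neuropilins for class 3 ligands and binds Sema6d directly, lies on chromosome 6 from 89316313 to 89362613. It stood at 285 and 379.6 CPM in shGrhl3 cells and 241 and 208 CPM in shNT cells. The groups did not overlap, although the shGrhl3 libraries were far apart (log2 fold change 0.56, SE 0.13, adjusted p = 0.00484). Leaving out shGrhl3 replicate 2 gave a log2 fold change of 0.36, and leaving out shGrhl3 replicate 1 gave 0.76. Plxnc1, the receptor of the membrane-anchored Sema7a, lies on chromosome 10 from 94790866 to 94945015. It had 196 and 231 counts in shGrhl3 cells against 572 and 495 counts in shNT cells. The matching levels of 9.77 and 12.4 CPM in shGrhl3 cells and 29.9 and 31.2 CPM in shNT cells give a log2 fold change of -1.47 (SE 0.14, adjusted p = 2.34e-08), the lowest p among the members. Its level was 2.76-fold lower in shGrhl3 cells, and the log2 fold change stayed between -1.62 and -1.30 with each library left out in turn.

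Plxnc1 is also known from leukocytes, whose markers fell in the same libraries. The summed level of 15 fixed leukocyte markers was 157 and 126 CPM in shGrhl3 cells and 680.4 and 936 CPM in shNT cells. Of the 13 markers tested, 12 were lower and 1, Csf1r, was higher. None was at 0 in every library. Ptprc, the pan-leukocyte CD45 gene, stood at 0.948 and 1.18 CPM in shGrhl3 cells and 7.26 and 6.36 CPM in shNT cells. For each CPM of Ptprc there were 10.3 and 10.5 CPM of Plxnc1 in shGrhl3 cells, and 4.12 and 4.90 CPM in shNT cells. This ratio depends on the marker taken. The 12 falling markers had log2 fold changes from -3.24 (Mpeg1) to -1.53 (Cd14). That of Ptprc was -2.68, beside -1.47 for Plxnc1. The part of leukocyte transcripts in the Plxnc1 difference was not tested.

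The remaining plexins did not pass. Plxna4 stood at 73.0 and 85.7 CPM in shGrhl3 cells and 66.8 and 66.9 CPM in shNT cells, apart but short of the threshold (log2 fold change 0.25, SE 0.10, adjusted p = 0.0567). Plxnd1, the Sema3e receptor, stood at 49.5 and 56.6 CPM in shGrhl3 cells and 44.6 and 44.5 CPM in shNT cells (log2 fold change 0.25, SE 0.11, adjusted p = 0.0667). Both passed when libraries were scaled by total counts alone, at adjusted p of 0.0344 and 0.0422. They also passed without shGrhl3 replicate 1, at log2 fold changes of 0.36 and 0.35, but without shGrhl3 replicate 2 these were 0.15 and 0.17 (adjusted p = 0.328 and 0.299). Plxnb2, a receptor of class 4 semaphorins such as Sema4c, stood at 401 and 450.3 CPM in shGrhl3 cells and 443 and 429 CPM in shNT cells. Its log2 fold change of -0.04 had a 95% interval of -0.20 to 0.13, whose upper end lies below the fold change of Plxna1. Plxna2, Plxna3 and Plxnb1 had log2 fold changes of 0.09, -0.16 and 0.03 with overlapping groups, and Plxnb1, the classical Sema4d receptor, had an interval of -0.21 to 0.28. Plxnb3 had 5 and 3 counts in shGrhl3 cells and 3 and 7 counts in shNT cells, too few to test.

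The membrane-bound ligands of class 4 moved in both directions. Sema4d, or CD100, a ligand of Plxnb1, stood at 8.83 and 10.9 CPM in shGrhl3 cells and 6.01 and 6.80 CPM in shNT cells (log2 fold change 0.63, SE 0.20, adjusted p = 0.0163). That call was lost with DESeq2 (adjusted p = 0.0576), without shGrhl3 replicate 2 (0.129) and without shNT replicate 1 (0.127). Sema4c, a ligand of Plxnb2, fell, with 361 and 337 counts in shGrhl3 cells against 468 and 403 counts in shNT cells, or 18.02 ± 0.0252 CPM against 24.9 ± 0.652 CPM (SD, n = 2 each; log2 fold change -0.47, SE 0.13, adjusted p = 0.00610). Sema4g had 36 and 34 counts in shGrhl3 cells and 72 and 61 counts in shNT cells (log2 fold change -1.07, SE 0.32, adjusted p = 0.0105). For Sema4c and Sema4g the libraries of each group nearly coincided in CPM. They lay closer than counting error alone would usually place them, so with n = 2 this closeness is no measure of their spread. Sema4a had 38 and 31 counts in shGrhl3 cells and 17 and 13 counts in shNT cells, the highest fold change of the family at a log2 value of 1.05, but it did not pass (SE 0.45, adjusted p = 0.0754). Sema4b had a log2 fold change of 0.04 with overlapping groups. Sema4f had 32 and 46 counts in shGrhl3 cells and 39 and 8 counts in shNT cells, so its log2 fold change of 0.59 rested on shNT replicate 2. Without that library it was -0.01, and without shNT replicate 1 it was 1.98, with an adjusted p of 0.0296.

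In class 6, Sema6a fell and the others did not pass. Sema6a, a transmembrane ligand of Plxna2 and Plxna4, lies on chromosome 18 from 47245254 to 47371200. It had 37 and 36 counts in shGrhl3 cells against 122 and 84 counts in shNT cells. At 1.85 and 1.93 CPM in shGrhl3 cells and 6.37 and 5.29 CPM in shNT cells, it had the lowest fold change of the family (log2 fold change -1.64, SE 0.29, adjusted p = 8.58e-05). Sema6d, which signals through Plxna1 in the developing chick heart, stood at 39.7 and 53.5 CPM in shGrhl3 cells and 47.3 and 46.3 CPM in shNT cells. The groups overlapped and the log2 fold change was -0.01 (95% interval -0.26 to 0.24). Sema6c stood at 6.33 and 7.23 CPM in shGrhl3 cells and 3.45 and 5.67 CPM in shNT cells (log2 fold change 0.60, adjusted p = 0.0631), and Sema6b had 27 and 13 counts against 36 and 24 counts in shNT cells (log2 fold change -0.73, adjusted p = 0.228). Sema6c passed without shNT replicate 2 (log2 fold change 0.97, adjusted p = 0.0119), without shGrhl3 replicate 1 (adjusted p = 0.0497) and with scaling by total counts alone (0.0493), whereas without shNT replicate 1 its log2 fold change was 0.25 (adjusted p = 0.586).

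Classes 5 and 7 gave no call. Sema5a, a ligand with thrombospondin repeats, stood at 36.0 and 44.3 CPM in shGrhl3 cells and 49.8 and 35.7 CPM in shNT cells, fully overlapping. Sema5b had 0 and 1 counts in shGrhl3 cells and 0 and 3 counts in shNT cells and was not tested. Sema7a, the GPI-anchored ligand of Plxnc1 and of beta1 integrins, stood at 14.1 and 14.7 CPM in shGrhl3 cells and 11.97 and 11.52 CPM in shNT cells. Its groups were apart, but the log2 fold change of 0.29 had a 95% interval of -0.03 to 0.61 and an adjusted p of 0.156. Counted over the family, 11 of 29 tested members had both shGrhl3 libraries above both shNT libraries and 7 had both below, against 32.8% and 33.7% of all genes tested.

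Genes that work with the family were read from 3 fixed lists, of binding partners, intracellular signalling and proteases that process semaphorins. Of 69 tested genes on these lists, 13 rose, 24 fell and 32 did not pass, which is 18.8% higher and 34.8% lower beside 17.2% and 18.1% of all genes. The signalling list had 4 higher and 17 lower of 40 tested and a median log2 fold change of -0.24, against -0.01 over all genes. The share of lower calls was 42.5% on the signalling list, 33.3% on the protease list and 20% on the partner list. These lists were chosen with earlier results of these data known. No test of the lists themselves was made.

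The signalling genes included mediators of semaphorin-driven cytoskeletal collapse. Dpysl2, or CRMP2, a microtubule-binding mediator of Sema3a signalling, fell to 54.2 and 46.0 CPM in shGrhl3 cells, against 122 and 149.9 CPM in shNT cells (log2 fold change -1.44, SE 0.11, adjusted p = 1.41e-09). Its relative Dpysl3 fell as well, at 108 and 115 CPM in shGrhl3 cells and 163 and 152 CPM in shNT cells (log2 fold change -0.50). Gsk3b, a kinase that phosphorylates Dpysl2, had a log2 fold change of -0.60, and Rras, a Ras-family GTPase that plexins switch off, one of -0.57. Cfl2, an actin-severing cofilin, had a log2 fold change of -0.44. The 4 rising members were Rnd1, a GTPase that binds plexins (83.8 and 67.6 CPM in shGrhl3 cells against 42.2 and 42.2 CPM in shNT cells, log2 fold change 0.84), Mical3 (0.49), the cofilin kinase Limk1 (0.52) and Rras2 (0.24).

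Binding partners had 5 higher and 4 lower members of 20 tested, with a median log2 fold change of 0.03. Vegfa, a growth factor that shares Nrp1 with the semaphorins, stood at 346 and 356 CPM in shGrhl3 cells and 193 and 174 CPM in shNT cells (log2 fold change 0.94, SE 0.08, adjusted p = 7.25e-09). Vegfc, a ligand of Nrp2, moved the other way, at 19.1 and 16.4 CPM in shGrhl3 cells and 29.3 and 38.2 CPM in shNT cells (log2 fold change -0.91, SE 0.14, adjusted p = 1.66e-05). Flt1, the VEGF receptor 1, and its ligand Pgf rose, with log2 fold changes of 0.47 and 0.55. The receptor kinases Erbb2, a partner of Plxnb1, and Ret rose by 0.44 and 1.32 on the log2 scale. Vegfd, the plexin-binding scaffold Ranbp9 and L1cam, a co-receptor of Nrp1 for Sema3a, fell, with log2 fold changes of -0.38, -0.27 and -1.52.

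Among 9 processing proteases, 4 rose and 3 fell, or 44.4% and 33.3%, beside 17.2% and 18.1% of all genes. With so few genes these shares are coarse, and the difference was not tested. Furin, the convertase that cleaves class 3 semaphorins, stood at 204 and 231 CPM in shGrhl3 cells and 112 and 104 CPM in shNT cells (log2 fold change 1.01, SE 0.09, adjusted p = 7.29e-09). The related convertases Pcsk6 and Pcsk5 rose with log2 fold changes of 0.63 and 0.46, and Mmp14, a membrane metalloproteinase that can shed Sema4d, with 0.33. Adam10 fell with a log2 fold change of -1.16, Adam17 with -0.45 and Adam8, also made by leukocytes, with -1.69.

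**Figure D4:**
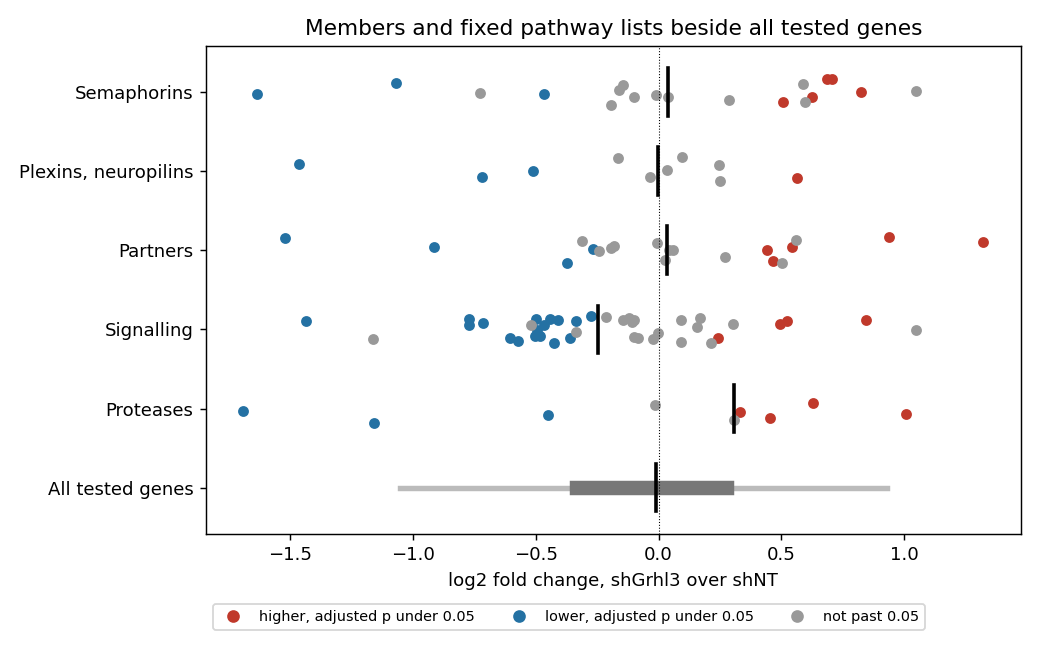
Log2 fold change of shGrhl3 over shNT (x axis) for each tested gene of the family and of the 3 fixed lists, with the median of each row as a black line; the lowest row gives the median, the interquartile range and the 5th to 95th percentile of all 15324 tested genes. The signalling row has its median at -0.24 with 17 of 40 genes called lower, while the semaphorin row holds 5 higher and 3 lower calls.

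Other guidance families in the same cells gave a similar share of calls in all, but not the same split by direction. Of 34 tested genes of the slit, netrin and ephrin systems, 5 rose and 10 fell. That is 44.1% called, beside 41.4% for the semaphorin family and 35.3% of all genes. Higher and lower calls made up 14.7% and 29.4%, against 20.7% each for the semaphorin family. The slit and netrin list had 11.1% higher and 38.9% lower, and the Eph list 18.8% each way. Over all genes, 17.2% were higher and 18.1% lower. Among the slit and netrin genes, Neo1 and Unc5b rose (log2 fold changes 0.53 and 0.29), and Unc5c, Flrt2, Robo1, Robo2 and Ntng2 fell with the lowest p (-1.69, -0.57, -0.93, -0.75 and -2.40). Of the Eph system, Epha4, Epha2 and Efnb1 rose (2.32, 1.08 and 0.53), and Epha7, Efna5 and Ephb4 fell (-1.07, -0.45 and -0.36). The difference between these families was not tested. Endothelial markers, relevant because vessels use the same receptors, summed to 48.3 and 41.3 CPM in shGrhl3 cells and 61.8 and 59.1 CPM in shNT cells over 10 genes. Of these, 0 were higher, 2 lower and 8 not called, and none was at 0 in every library. Neural and glial markers, of the cells best known for semaphorin responses, summed to 41.4 and 42.5 CPM in shGrhl3 cells and 57.6 and 62.7 CPM in shNT cells over 10 genes. Most of that sum was Tubb3, while Rbfox3 and Snap25 were at 0 counts in all 4 libraries. Of the 3 neural and glial markers tested, 0 were higher and 1 lower. Epithelial markers summed to 27.7 and 24.5 CPM in shGrhl3 cells and 11.7 and 13.8 CPM in shNT cells over 8 genes. Of 4 tested, 2 were higher (Krt7 and Krt18) and 0 lower. Smooth muscle and pericyte markers summed to 3864 and 3662 CPM in shGrhl3 cells and 3716 and 3629 CPM in shNT cells. Of these 10 markers, 3 were higher and 2 lower. Of the leukocyte markers 12 of 13 tested were lower in shGrhl3 cells, as were 6 of 10 fibroblast markers. The part of any of these cell types in the falls of the neuropilins was not tested.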

How the data were processed

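RNA-seq of 2 shGrhl3 and 2 shNT libraries was analysed from the authors' deposited table of raw counts, with 1 row per gene and 1 column per library. The mm10 build and the tools HISAT2 2.0.1, cutadapt 1.9.1, ChIPseeker, MACS2 and Bowtie2 2.2.6 are listed, with no roles, per the submitters' processing notes. The counting program, annotation, strand setting and treatment of multi-mapping reads were not stated in those notes or in the labels, so reads of overlapping or antisense transcripts cannot be told apart; the antisense rows near Plxna4 had 0 to 3 counts per library. Of 55359 rows, 1438 name no gene and held at most 0.00872% of a library's counts; they were left out.

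Genes were filtered by filterByExpr (minimum count 10), scaled by TMM and tested with edgeR 4.0.16 in R 4.3.3 (glmQLFit with robust spread and without separate gene-wise dispersions, two-sided, Benjamini-Hochberg over 15324 genes, threshold 0.05). The SE comes from the quasi-likelihood F statistic and the 95% interval from its degrees of freedom. A gene at 1 CPM has 15.9 to 20.1 counts in a library, where counting error is large. The libraries of each group differed by more than sampling noise (chi-square per degree of freedom 8.66 for shGrhl3 and 14.1 for shNT) and were counted as separate. On counts simulated for this comparison over 15324 genes, the test recovered 68% of 50 genes changed 1.5-fold and 80% of 50 changed 2-fold. It also called 13 unchanged genes. Far fewer genes were changed there than the 35.3% called in the data, which makes the threshold stricter, so this recovery does not carry over directly.

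The genes and lists were chosen with earlier results of these data known. Every tested member is named, and of each pathway and guidance list up to 5 called genes per direction with the lowest p. Marker lists are given by sums and counts, with markers named as examples after their values were seen. Sequences and positions are RefSeq's for GRCm38.p6; all 31 members matched a position and 26 a promoter window. Alternatives were other size factors, filters, row merging, DESeq2 1.42.0, limma-voom (limma 3.58.1), a replicate block and each library left out.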

Additional observations from a re-analysis of the deposited data

How the results depend on the processing

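Of 401 fold changes of members under alternatives, 367 kept their direction and side of the threshold, 13 passed it anew, 6 lost it and 15 changed sign. The counts of calls stayed within 1.5 times their main value under all 14 alternatives. With a replicate block the members were 6 higher and 6 lower, and 5042 genes passed in all. Whether same-numbered libraries were handled together is not stated in the labels. Their deviations from the group means had a correlation of -0.0735. With 2 libraries per group, crossing the numbers only turns the sign of this value, so it cannot decide whether the libraries are paired. Scaling by total counts alone gave 9 higher and 6 lower. With numbers crossed, chosen after seeing the data, 8 members were higher and 7 lower. Leaving out each library gave 4 to 8 higher and 6 to 7 lower members, and 3835 to 5190 genes in all. These fits leave 1 library in a group, which is assumed to vary like the others. Of 12 called members, Plxna1, Sema3c, Sema3f, Nrp1, Nrp2, Plxnc1, Sema4c, Sema4g and Sema6a passed in every alternative. Of these, Plxna1 and Sema4g passed only narrowly in DESeq2's Wald test (adjusted p = 0.0459 and 0.0439). Sema6d turned to a log2 fold change of 0.016 with scaling by total counts alone. With a library left out, log2 fold changes of uncalled members crossed 0 for Plxna2 (-0.0518 to 0.25), Plxnb1 (-0.0426 to 0.13), Plxnb2 (-0.10 to 0.046), Sema3a (-0.41 to 0.0766), Sema3g (-0.50 to 0.29), Sema4b (-0.0345 to 0.12), Sema4f (-0.0143 to 1.98), Sema5a (-0.31 to 0.17) and Sema6d (-0.22 to 0.19). The cause was not tested. Sema3g, with 8 to 16 counts per library, had a 95% interval of -1.44 to 1.16.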

Other observations

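The called class 3 semaphorins lie in a pair of gene neighbourhoods, looked at after their values were seen. Only genes that passed the filter on low counts were considered there, so untested genes may lie between those named. On chromosome 5, Sema3d, Sema3a, Sema3e and Sema3c follow each other between 12383161 and 17730268 (GRCm38.p6), and of these Sema3e and Sema3c rose (edgeR's quasi-likelihood test, as in the values that follow). Hgf, the ligand of the plexin partner Met, lies between Sema3e and Sema3c and fell (log2 fold change -0.87, adjusted p = 0.00246), while Cacna2d1, a calcium channel subunit in the same stretch, had a log2 fold change of -0.02 (adjusted p = 0.900). The fatty acid receptor gene Cd36 lies 51422 bases from Sema3c and had a log2 fold change of -5.14 (adjusted p = 7.53e-10), beside the 0.71 of Sema3c. On chromosome 9, Sema3b and Sema3f flank Gnai2, a G protein subunit gene. Both semaphorins rose, with log2 fold changes of 0.82 and 0.68, and Gnai2 between them had one of -0.15 (adjusted p = 0.162). The next tested genes on the other side of Sema3b, Lsmem2 and Ifrd2, also rose, with log2 fold changes of 1.61 and 0.78 (adjusted p = 0.000395 and 0.000744). Lsmem2 overlaps Sema3b at its end, and the rule for counting reads that overlap both genes was not stated in the labels.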
